A study of Rattus norvegicus with 18 samples.

Results

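Kidney transcripts of isoliensinine-treated spontaneously hypertensive rats were set against those of normotensive rats, with 6 libraries in each group. WKY is the Wistar-Kyoto strain on double distilled water, the usual normotensive control. SHR+Iso is the spontaneously hypertensive rat (SHR) given isoliensinine, a bisbenzylisoquinoline alkaloid from the lotus, at a daily dose of 5 mg/kg, and its labels list double distilled water as well. Untreated SHR on double distilled water, again 6 libraries, are used here to place each transcript. Treatment and water were each given for 10 weeks, all libraries came from whole kidney tissue depleted of ribosomal RNA, and the sources used here give neither age nor sex. Strain and treatment differ together between SHR+Iso and WKY, and their parts in a difference cannot be told apart. The members are the 614 transcripts listed in every file, of 6214 listed in any, and 12 of the 18 libraries enter the comparison. Of the 614, 141 have Ensembl transcript IDs and 473 come from a merged assembly, whose IDs (MERGE) hold a locus number and an isoform number.

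SHR develops high blood pressure without any surgical or dietary intervention, and the kidney, which sets salt and water balance, is both a driver and a target of it. Transforming growth factor β1 signals through its receptors to SMAD2 and SMAD3, which switch on matrix genes, and this route is known for its part in renal scarring. The series title places isoliensinine in that pathway. The files do not pair transcript IDs with genes, and 0 of the 614 IDs matched the available rat gene table (assembly GRCr8). Neither the 21 symbols of the TGF-β and SMAD list nor the 35 markers of kidney and other cell types could be matched, so the labelled tissue was not checked against its markers and no gene, position or sequence is given. In whole kidney, fewer cells of a type and less RNA per cell cannot be told apart.

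The deposited values are normalized abundances on an unstated scale, and differences below are between group means of log2(value + 1), where the added 1 makes changes of low transcripts look smaller. The files of WKY and SHR list 4005 transcripts and those of SHR+Iso 2823, and the 614 are what these lists share. No label or header says how the lists were made. If transcripts were listed for differing between groups, the counts of calls below follow in part from that, since the strain difference (SHR minus WKY) and the treatment difference (SHR+Iso minus SHR) add up to the difference of SHR+Iso from WKY. Their part in the counts was not tested. P-values were adjusted over the listed transcripts alone and give no error rate over the transcriptome.

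Values of 0 were common: 116 to 232 of the 614 transcripts per WKY library, and 97 to 265 per treated library, with replicates 2 and 4 of SHR+Iso at 265 and 224. Low values of libraries of 1 group stood most often at 1 fixed ratio, as they would if each were 1 read. By that ratio, 1 read was worth 1 to 1.13 in WKY and 1 to 1.235 in SHR+Iso, relative to replicate 1 of the same group, and 13 of the 15 pairs of SHR+Iso libraries gave the same ratios. In SHR+Iso it was worth 1.235 in replicate 2, which had the most transcripts at 0, 1.059 in replicate 4 and 1.15 in replicate 6, which had the fewest, 97. The number of reads is unknown, and the part of depth in the values of 0 was not tested.

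Of the 614 transcripts, 255 reached 1 in 6 or more of the 12 libraries and were tested with limma. At a Benjamini-Hochberg adjusted p of 0.05, 28 transcripts (11.0%) were called, 12 higher (4.71%) and 16 lower (6.27%) in SHR+Iso than in WKY, and 35 had an unadjusted p under 0.05. Differences ran from 1.02 to 4.71 among those higher, with a median of 1.88, and from -4.17 to -0.98 among those lower, with a median of -2.20. Over all 255 the median difference was -0.04. The 12 transcripts called higher were mostly low or listed at 0 in WKY: 9 had a WKY mean below 1, and no SHR+Iso library was at 0 for any of the 12. The filter described below sets this in part. The 16 called lower were above 0 in every WKY library, and 10 of them were listed at 0 in at least 1 SHR+Iso library. Values of 0 were common in general, and only 237 of the 614 transcripts (38.6%) were above 0 in every WKY and every SHR+Iso library. Ensembl transcripts made up 7 of the 28, of 72 tested, and assembled transcripts 21, of 183 tested.

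The values of the 6 SHR+Iso and 6 WKY libraries did not overlap for 27 of the 614 transcripts (4.40%), 16 higher (2.61%) and 11 lower (1.79%). Of these 27, 21 were called and 6 reached 1 in too few libraries to be tested. All 12 transcripts called higher, and 9 of the 16 called lower, had groups that did not overlap. The filter itself favoured differences. It passed 8 transcripts with no WKY library at 1 or more and 3 with no SHR+Iso library at 1 or more, and all 8 and all 3 were called. Transcripts that enter through 1 group had to differ, so their calls give no support, and those of them named below are described by their values alone.

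**Figure D1:**
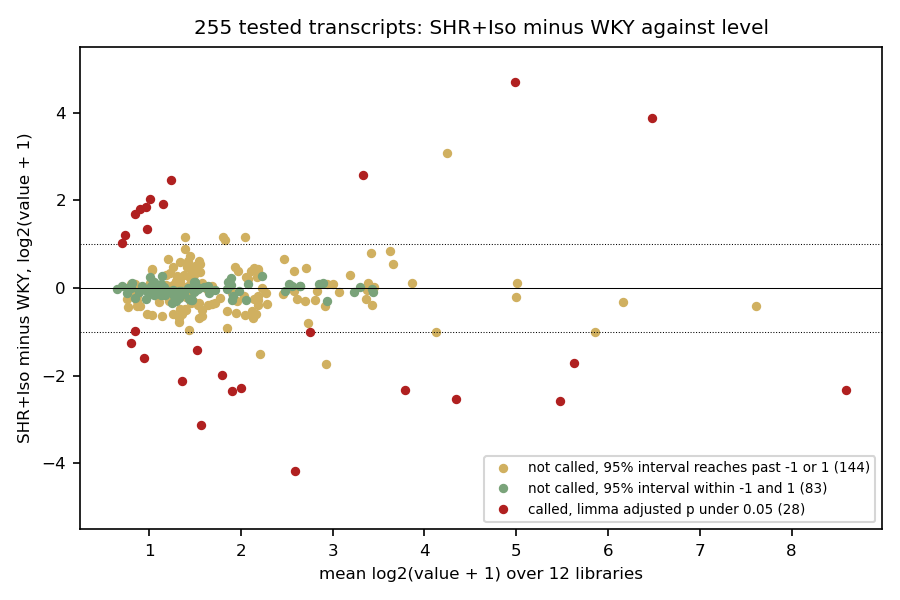
SHR+Iso minus WKY on the log2(value + 1) scale (vertical axis) against the mean log2(value + 1) over the 12 libraries (horizontal axis), 1 point per tested transcript. Of the 28 called transcripts (red), 12 are among the 85 with the lowest mean level, 5 among the middle 85 and 11 among the highest 85, while 83 transcripts (green) have a 95% interval within -1 and 1.

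Most called transcripts lay further from WKY in treated than in untreated SHR, though fewer than 10 of these steps passed the treatment test. For 24 of the 28, the untreated SHR mean of log2(value + 1) lay between the WKY mean and the SHR+Iso mean, and for the other 4 the SHR+Iso mean lay between WKY and SHR. Over all 614, SHR lay between for 31, of which 25 were tested and 24 called. Of the 24, 11 were higher and 13 lower in SHR+Iso than in WKY. These 24 include all 11 transcripts that entered through 1 group alone. Without them SHR lay between for 13 of the 17 called, 3 higher and 10 lower. Among the 11 of the 24 that were higher, the median strain difference was 1.05 and the median treatment difference 0.91. Among the 13 of the 24 that were lower, they were -1.15 and -1.07. Only 3 of the 11 that were higher did not enter through SHR+Iso alone, and 10 of the 13 that were lower did not enter through WKY alone. These medians therefore describe transcripts that the filter in part chose, and medians without them were not taken. Set side by side, the strain test passed 13 of the 16 of these 24 that could be tested in it, where it passed 62.8% of all transcripts it tested. The treatment test passed 7 of 19, where it passed 42.2% of all, and 6 of the 24 passed neither. Both tests passed transcripts that entered through 1 group alone, such as MERGE.21244.3 for treatment and MERGE.8520.1 for strain. Passes without such transcripts were not counted, so the shares of passes are descriptions and give no support. The comparisons share libraries, so these counts are not independent of each other.

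**Figure D2:**
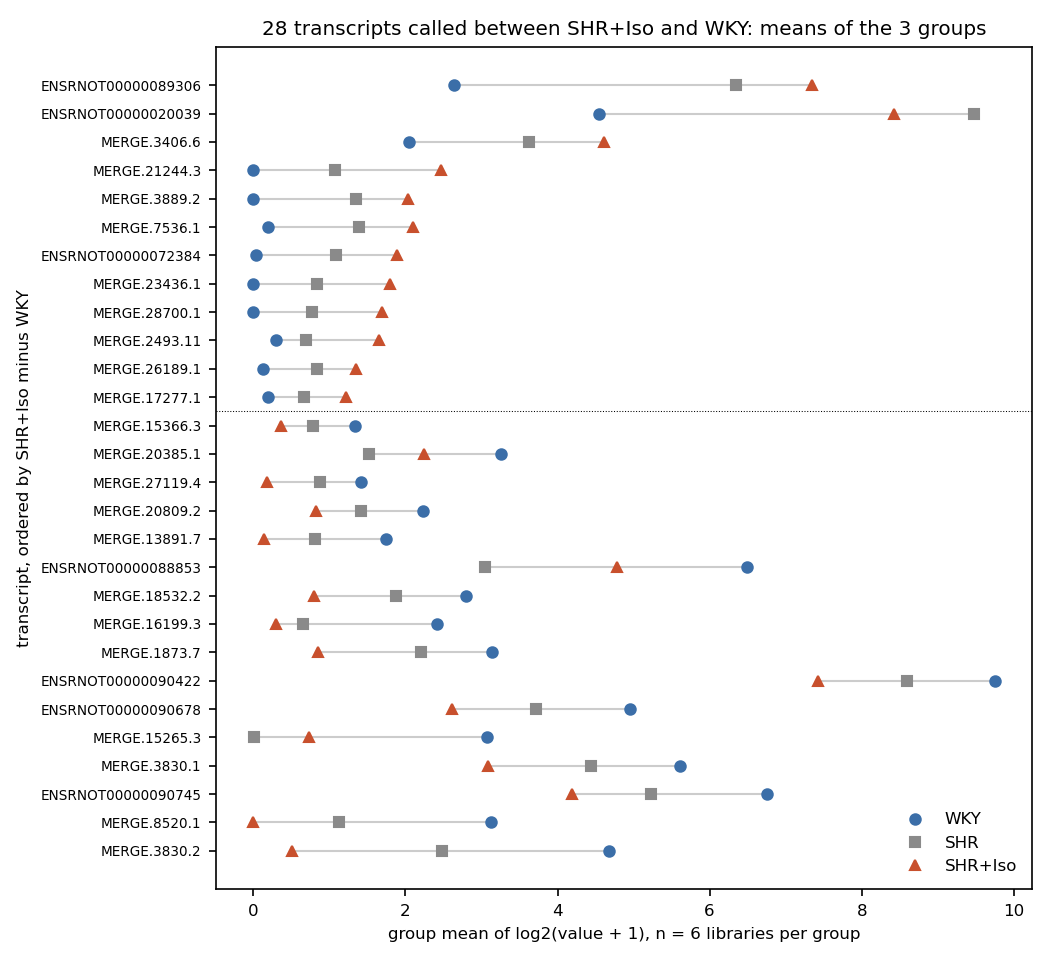
Group means of log2(value + 1) for the 28 called transcripts (n = 6 libraries per group), ordered by SHR+Iso minus WKY; circles are WKY, squares SHR and triangles SHR+Iso, and the dotted line parts the 12 called higher from the 16 called lower. The square lies between the other symbols in 24 of the 28 lines.

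The largest rise was that of ENSRNOT00000089306. Its values were 0.0306 to 30.0 in WKY (median 12.5), 21.7 to 190.1 in SHR (median 101.3) and 130.1 to 224.6 among treated libraries (median 157.0). WKY was split, with 23.4, 30.0 and 26.7 in replicates 1, 2 and 4 and 1.54, 0.0413 and 0.0306 in replicates 3, 5 and 6, and every treated library lay above every WKY library. SHR+Iso exceeded WKY by 4.71 ± 0.92 on the log2 scale (SE; limma adjusted p = 0.00286; at most 0.0194 over all alternatives). The strain difference was 3.72 ± 0.93 (limma adjusted p = 0.00843), and the treatment difference of 0.99 ± 0.54 did not pass (limma adjusted p = 0.0909).

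ENSRNOT00000020039 had the next largest rise with an added 1 and was the most abundant of those called higher. With 0.1 added instead, 5 transcripts named below that entered through SHR+Iso alone, all near 0 in WKY, had larger differences than its 3.93. It had values of 24.7 ± 9.99 in WKY, 716.7 ± 116.3 in SHR and 418.4 ± 241.6 in SHR+Iso (SD, n = 6 each), and SHR+Iso exceeded WKY by 3.87 ± 0.54 (SE; limma adjusted p = 0.000214). Treated libraries ran from 117.3 to 718.2, all above the highest WKY value of 32.6. Among them, replicates 2 and 4 lay lowest, at 117.3 and 141.3, against 444.1 to 718.2 in the other 4. The strain difference of 4.92 ± 0.38 passed (limma adjusted p = 1.35e-07), while the treatment difference of -1.05 ± 0.48 did not (limma adjusted p = 0.0633). This was the only 1 of the 12 transcripts called higher whose mean of log2(value + 1) was lower in treated than in untreated SHR. Without replicates 2 and 4 of SHR+Iso it stood 4.57 above WKY (limma adjusted p = 3.15e-05, within 6.53e-06 to 0.00365 over all alternatives).

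Among the falls, MERGE.3830.2 had the largest. It was at 25.5 ± 7.97 in WKY, 7.40 ± 7.68 in SHR and 1.00 ± 2.35 in SHR+Iso (SD, n = 6 each). In SHR+Iso it was listed at 0 in replicates 1, 2, 4 and 5 and had 0.214 in replicate 3 and 5.80 in replicate 6, while no WKY library was below 17.2. SHR+Iso lay below WKY by 4.17 ± 0.47 (log2 difference -4.17; SE 0.47; limma adjusted p = 4.97e-05), and with 0.1 added in place of 1 the log2 difference was -6.69. This transcript also passed in the strain comparison, at -2.20 ± 0.62 (limma adjusted p = 0.0144), and in the treatment comparison, at -1.97 ± 0.64 (limma adjusted p = 0.0280). MERGE.8520.1, with the next largest fall, was listed at 0 in all 6 SHR+Iso libraries and above 0 in all 6 WKY libraries, at 2.18 to 11.4 (median 10.6). It entered the test through WKY alone. Untreated SHR ranged from 0 to 3.24, with replicates 2 and 6 at 0. It was the only 1 of the 614 transcripts above 0 in every WKY library and at 0 in every treated one.

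Besides MERGE.3830.2, 1 of the 24 transcripts with SHR between passed in all 3 comparisons in 1 direction. ENSRNOT00000090422 was the most abundant of the 28, at 904.1 ± 299.6 in WKY, 432.2 ± 250.8 in SHR and 185.7 ± 82.2 in SHR+Iso (SD, n = 6 each). Its lowest WKY value was 506.4 and its highest SHR+Iso value 295.8. The log2 difference was -2.32 ± 0.36 from WKY (SE; limma adjusted p = 0.000371), made up of -1.15 ± 0.37 for strain (limma adjusted p = 0.0210) and -1.17 ± 0.45 for treatment (limma adjusted p = 0.0467).

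Several falls shared their highest and lowest libraries, a pattern noticed after the values were seen. How many other transcripts share it was not counted. ENSRNOT00000090422, ENSRNOT00000090745, MERGE.3830.1 and MERGE.3830.2 each had their 2 highest WKY values in replicates 3 and 5, their lowest in replicate 6, and their highest SHR value in replicate 3. For ENSRNOT00000090745 these were 150.6 and 166.4 in WKY replicates 3 and 5, 58.9 in replicate 6 and 82.1 in SHR replicate 3. ENSRNOT00000090678 shared the low WKY replicate 6, at 15.8, and the high SHR replicate 3, at 22.1, but its highest WKY value, 49.3, was in replicate 4. SHR+Iso lay below WKY by 2.57 ± 0.41, 2.33 ± 0.34 and 2.53 ± 0.55 (SE) for ENSRNOT00000090745, ENSRNOT00000090678 and MERGE.3830.1 (limma adjusted p = 0.000541, 0.000290 and 0.00615), and no treated library reached the WKY range. MERGE.3830.1 and MERGE.3830.2 are isoforms of 1 assembled locus, so reads may have been split between them. Of 22 loci with more than 1 shared transcript, MERGE.3830 alone held a called one.

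Of the 12 transcripts called higher, 4 were listed at 0 in all 6 WKY libraries and above 0 in all 6 treated ones, again singled out after their values were seen. All 4 entered the test through SHR+Iso alone. MERGE.21244.3 had 1.14 to 7.69 in SHR+Iso (median 5.09), while untreated SHR replicates 3, 5 and 6 had 2.49, 3.38 and 4.56 and the other 3 were at 0. MERGE.23436.1 had 1.34 to 3.84 in SHR+Iso and 0 to 1.21 in SHR. MERGE.28700.1 had 1.57 to 4.19 in SHR+Iso and 0 to 1.82 in SHR. MERGE.3889.2 had 10.4 in SHR+Iso replicate 2 and 1.80 to 2.61 in the other 5, while SHR was at 40.3 in replicate 3, at 1.24 and 1.89 in replicates 1 and 2 and at 0 in the rest. Its call was lost in 1 fit over all 3 groups, but a call that enters through SHR+Iso alone gives no support in any fit. Over all 614, 46 transcripts were listed at 0 in every WKY library, of which 7 were above 0 in every SHR+Iso library and 10 were at 0 in every treated library too. In the reverse direction, 22 were listed at 0 in every treated library. An exact 0 can be a failed estimate, so no fold is given.

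In 2 of the 24 transcripts, the 3 groups did not overlap at all, WKY lowest, SHR between and SHR+Iso highest. The share of all 614 transcripts with the 3 groups apart was not counted. ENSRNOT00000072384 was at 0 in 5 WKY libraries and 0.165 in replicate 6, at 0.245 to 1.85 in untreated SHR and at 2.05 to 4.26 in the treated group. MERGE.26189.1 was at 0.0160 to 0.147, 0.456 to 1.152 and 1.153 to 2.27 in the same order, so that its SHR and SHR+Iso values nearly touched. Both entered the test through SHR+Iso alone. Their log2 differences from WKY were 1.86 and 1.22, and 4.57 and 3.12 with 0.1 added in place of 1. In 4 of the 24 all SHR libraries lay apart from all WKY libraries, and in 5 all treated libraries lay apart from all SHR libraries. Over the 614 these groups did not overlap for 11.7% and 8.47%.

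The 4 called transcripts whose treated mean lay between SHR and WKY were ENSRNOT00000020039 above and 3 transcripts with lower levels in SHR+Iso. ENSRNOT00000088853 had 33.5 to 170.5 in WKY (median 99.4), 0 to 33.8 in untreated SHR and 14.5 to 34.9 in the treated group (limma adjusted p = 0.0190). Only WKY replicate 1, at 33.5, reached the treated range, and the call was lost without WKY replicate 2, 3 or 5, without SHR+Iso replicates 2 and 4 together, in 1 fit over all 3 groups and with the replicate block (limma adjusted p from 0.00141 to 0.360 over all alternatives). MERGE.15265.3 had 1.65 to 26.7 in WKY, at most 0.0146 in SHR, and 4.25 and 2.77 in SHR+Iso replicates 3 and 5 against at most 0.0487 in the other 4 (limma adjusted p = 0.0406). Its call was lost in 11 of 20 alternatives, without each of WKY replicates 1, 2 and 5 and SHR+Iso replicates 1, 2, 4 and 6 among them (limma adjusted p from 0.00381 to 0.199 over all). MERGE.20385.1 was tightly grouped at 3.39 to 4.17 in SHR+Iso, above all SHR libraries (0.903 to 2.83) and below 5 of the 6 WKY libraries (8.58 to 12.2), with WKY replicate 1 at 2.84. It was the last call before the threshold (log2 difference -1.01 ± 0.30; limma adjusted p = 0.0433) and was lost in 16 of 20 alternatives, among them without each library other than WKY replicate 1 (limma adjusted p from 0.000490 to 0.155 over all). The next transcript outside, MERGE.24074.1, had a limma adjusted p of 0.144 and a difference of -0.59 ± 0.21 (SE).

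**Figure D3:**
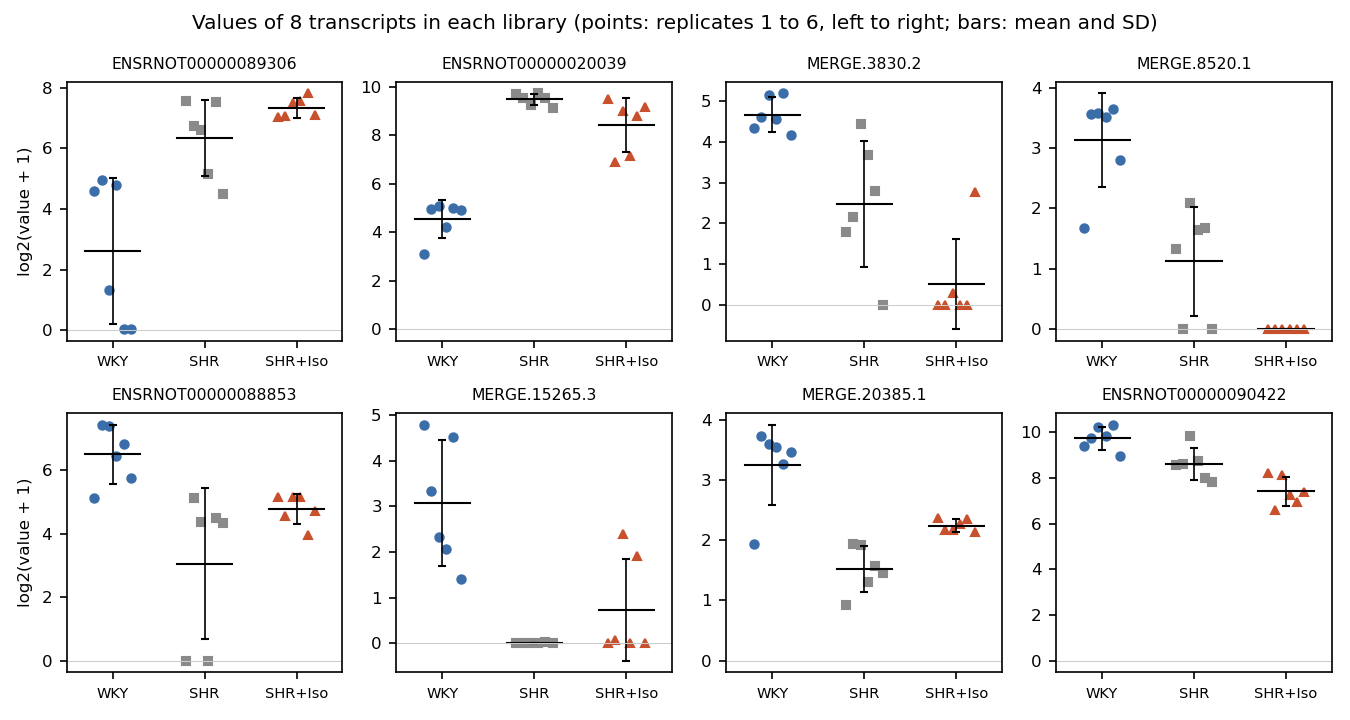
Values on the log2(value + 1) scale in each library for the 8 transcripts chosen by the naming rule; symbols are replicates 1 to 6 from left to right within WKY, SHR and SHR+Iso, horizontal lines are means and bars are SD (n = 6). The treated libraries lie clear of all WKY libraries in the first 4 panels and for ENSRNOT00000090422, and meet the WKY range in the other 3.

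Of the 31 transcripts with SHR between, 7 were not called. MERGE.15703.15 was the 1 of these that was tested, at 0 in WKY replicates 2, 5 and 6 and 36.1 to 50.4 in replicates 1, 3 and 4, 11.1 to 101.1 in untreated SHR and 22.5 to 115.8 in the treated group. Its difference of 3.09 ± 1.15 (SE) did not pass (limma adjusted p = 0.161). The other 6 reached 1 in too few libraries to be tested. Their means were 0 to 3.85 in WKY and 0.0397 to 1.49 in SHR+Iso, and for 5 of them the treated and WKY values did not overlap.

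Most transcripts were neither called nor shown to be alike. The 95% confidence interval of the difference, not adjusted for the number tested, lay within -1 and 1 for 83 of the 255 transcripts and reached past 1 of these bounds without a call for 144. For 31 uncalled transcripts it reached past -2 or 2. Intervals had a median half-width of 0.90. Of 36 transcripts with a difference of at least 1, 27 were called and 9 were not, and the larger of the group SDs had a median of 2.30 in these 9 and 0.67 in the 28 called. Bounded transcripts were commonest at low levels, where the added 1 compresses differences: 41 of the 85 with the lowest mean level, 25 of the middle 85 and 17 of the highest 85.

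Over the whole set, the treated libraries lay nearer to WKY than untreated SHR did, with no test made of this, and 5 of the 6 lay farther from the WKY mean than every WKY library other than replicate 1. The median absolute log2 difference from the mean of 5 WKY libraries was 0.40 to 0.47 for SHR+Iso libraries, 0.33 to 0.41 for WKY libraries other than replicate 1, 0.47 for that replicate, and 0.70 to 0.86 for SHR libraries. The treated libraries had 25.7% to 33.6% of the 614 transcripts outside the range of 5 WKY libraries, WKY libraries 19.1% to 26.6%, or 35.2% in replicate 1, and SHR libraries 47.9% to 60.8%. From the mean of 5 SHR libraries, SHR+Iso replicates 2 and 4 lay at 1.07 and 0.98, the other 4 treated libraries at 0.60 to 0.72 and the WKY libraries at 0.63 to 0.98. How far the making of the lists sets these distances was not tested.

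**Figure D4:**
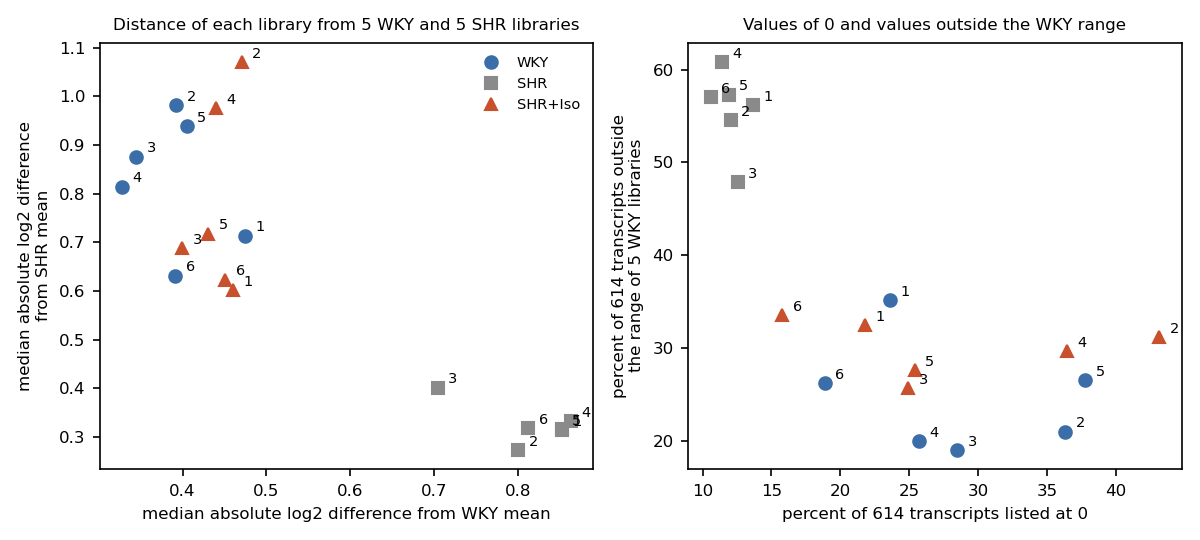
Left, the median absolute log2 difference of each library over the 614 transcripts from the mean of 5 WKY libraries (horizontal axis) and of 5 SHR libraries (vertical axis). Right, the percent of transcripts listed at 0 (horizontal axis) and the percent outside the range of 5 WKY libraries (vertical axis); numbers are replicates, and SHR+Iso replicates 2 and 4 stand at 43.2% and 36.5% listed at 0.

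Replicates 2 and 4 of SHR+Iso also lay at the ends of many called transcripts. They had the 2 highest treated values for 5 of the 12 transcripts called higher, and for 27 of the 227 tested but not called. Replicate 2 was lowest or tied for lowest in 11 of the 16 called lower, in 84 of the 227, and in 321 of all 614. Without these libraries limma called 24 transcripts, 13 higher and 11 lower, 23 of them among the 28. In WKY, replicate 1 or 6 was lowest in 11 of the 16 called lower and lowest or tied in 77 of the 227, and without both, 27 transcripts were called, 25 of them among the 28. Whether these libraries have a part in the remaining calls beyond these values was not tested.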

How the data were processed

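RNA-seq of kidney was deposited as 1 file per library. The deposited values are a normalized signal per transcript whose scale the authors do not state in the file headers; limma appears, with no version, among the tools of the submitters' processing notes. Not given in the sources used here are the aligner, the quantifier, the build and how transcripts were chosen for the files. Total depth is unknown. The labels give 6 samples per group without naming animals, so the spread that p-values measure is that between libraries, which may be technical.

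Members and lists were chosen with earlier results of these data known. SHR+Iso was compared with WKY over the 614 shared transcripts with limma 3.58.1 in R 4.3.3 (trended prior, robust estimation) on log2(value + 1), without covariates, for transcripts at 1 or more in at least 6 of 12 libraries. P-values are two-sided and Benjamini-Hochberg adjusted, with a threshold of 0.05. SHR against WKY and SHR+Iso against SHR were fitted alike over the shared transcripts. Python 3.11.15 made the counts.

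Named were the 2 largest rises and falls among called transcripts with groups that did not overlap and a mean above the 25th percentile of those tested, called transcripts without SHR between, and those called in all 3 comparisons in 1 direction; others were singled out after their values were seen. The test was checked on simulated data. The alternatives tried were a filter at 5 or none, quantile normalization, a pseudocount of 0.1, no trend, all 3 groups in 1 fit, a replicate block, libraries left out and a difference of at least 1; leaving out WKY replicates 1 and 6 was added after seeing the data. Settings that leave out libraries kept the 255 transcripts.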

Additional observations from a re-analysis of the deposited data

Results flagged for a closer look

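In 10 of 66 groups of 6 libraries checked, 1 library stood apart from the other 5. Chance marks about 1 in 20 where values are normally distributed, but untransformed values were checked here, many of them at 0. Most transcripts checked were also chosen for their values, 2 of them (MERGE.3830.1 and ENSRNOT00000090745) for a pattern that includes a high SHR replicate 3. The number is therefore a description. Untreated SHR replicate 3 had 919.8 for ENSRNOT00000090422 against 228.5 to 423.5 in the other SHR libraries, 82.1 for ENSRNOT00000090745 against 23.1 to 38.9, 50.5 for MERGE.3830.1 against 13.6 to 26.1, 101.1 for MERGE.15703.15 against 11.1 to 33.3, and 40.3 for MERGE.3889.2 against 0 to 1.89. In the treated group, MERGE.24074.1 had 1.40 in replicate 2 against 0.804 to 0.944 in the others, MERGE.3889.2 had 10.4 in replicate 2 against 1.80 to 2.61 in the others, and MERGE.3830.2 had 5.80 in replicate 6 against 0 to 0.214. ENSRNOT00000072384 had 0.165 in WKY replicate 6, and MERGE.15265.3 had 0.0146 in SHR replicate 5, each with the other 5 libraries of its group at 0.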

How the results depend on the processing

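Leaving out 1 library at a time, 25 to 28 transcripts were called, 12 higher in each case and 13 to 16 lower, 24 of them with SHR between, and 67 to 78 intervals lay within -1 and 1. These fits kept the 255 transcripts, among them the 11 called ones that entered through 1 group alone. Those had to differ, so the steadiness of counts that include them, here and under other alternatives, gives no support. With a filter at 5, which tests 60 transcripts, 10 were called, 3 higher and 7 lower, 8 with SHR between, and 10 intervals lay within the bounds. Without a filter, 319 of 604 intervals lay within them. With a pseudocount of 0.1, the only setting changed in that fit, 31 of 255 did. Whether larger differences or a larger spread set this was not tested. Of 109 counts under the alternatives, 102 stayed within 1.5 times. Same-numbered WKY and SHR+Iso libraries had deviations from their group means correlated at r = -0.09 to 0.23, over 0.1 in 3 of 6 pairs. Of the 6 treated libraries, 1 correlated best with its own number. Whether the replicate numbers pair the libraries was not tested. The replicate block gave 24 calls, 12 higher and 12 lower, 23 with SHR between and 95 intervals within the bounds. Of 389 values of the 19 named transcripts, 355 kept their side of the threshold, 34 lost the call and 0 changed direction. The 355 include values of named transcripts that entered the test through 1 group alone, which had to differ and give no support. They also include those of MERGE.15703.15 and MERGE.24074.1, which were not called and stayed uncalled. All 34 belong to ENSRNOT00000088853, MERGE.15265.3, MERGE.20385.1 and MERGE.3889.2. The filter at 5 left 10 of the 19 untested. With a pseudocount of 0.1, 11 of the 19 differences grew by over 1.5 times, and under no other alternative did any move that far.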
